A study of Homo sapiens with 4 samples.

Results

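The RNA exosome degrades and trims RNA from the 3′ end. In human cells a barrel of subunits related to the bacterial enzyme RNase PH, among them EXOSC4, EXOSC6, EXOSC7 and EXOSC9, carries a cap of RNA-binding subunits that includes EXOSC2 and EXOSC3. The barrel has lost its own catalytic activity, and RNA is cut by associated ribonucleases: DIS3 in the nucleus, DIS3L in the cytoplasm, and EXOSC10, which is concentrated in the nucleolus and is the human form of yeast Rrp6. The mRNAs of these 9 subunits were followed through an immunoprecipitation in which EXOSC10 protein itself was the antigen. They were chosen by gene symbol, and all 9 were found among the 12838 symbols of the deposited table.

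The libraries came from LM2-4175, a breast carcinoma line selected from MDA-MB-231 for metastasis to the lung, which stably carried a doxycycline-inducible construct of CerS4, a ceramide synthase. All cultures carried the construct and were grown under puromycin and hygromycin. The 4 groups were EXOSC10 antibody after doxycycline at 5 µg/mL for 48 h, EXOSC10 antibody without doxycycline, control IgG after the same doxycycline treatment, and control IgG without it. Each group was 1 library, and differences between groups therefore have no replicate check. The study compared EXOSC10-bound mRNA of doxycycline-treated and untreated cells, in a project on the complex of PD-L1 with Caprin-1 and mRNA decay when lipid metabolism is altered. No input RNA was analysed here. A difference in what the antibody recovered and a difference in the amount of the mRNA therefore cannot be told apart, nor can fewer cells and less RNA per cell.

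The deposited values were counts per 1000000 reads (CPM). Reads were estimated from the CPM worth of 1 read and came to 5511334 and 4233689 in the doxycycline and untreated EXOSC10 libraries, and 7575185 and 3723379 in the doxycycline and untreated IgG libraries. Ribosomal RNA genes took between 56.3% and 83.8% of them, which left 2408232 non-ribosomal reads in the doxycycline EXOSC10 library, against 1023385 to 1229753 in the other 3. Mesenchymal markers of the line (VIM, CD44, CAV1, MSN, AXL and ANXA1) all had entries, with 4175 to 8487 summed reads per library. The luminal markers GATA3, FOXA1, CDH1 and PGR summed to between 52.4 and 531 reads, while ESR1 and EPCAM had no entry analysed here. Of 7 markers of other cells, PECAM1 and COL1A1 had entries, with summed reads of 96.0 and 57.0 in the doxycycline and untreated EXOSC10 libraries and 24.0 and 17.0 in the corresponding IgG libraries, and PTPRC, CD3E, CD14, VWF and PDGFRB had none analysed here. CERS4 had no entry analysed here either, so the induction of the construct was not checked.

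The members were thinly covered. In the doxycycline EXOSC10 library they had 13.9 to 157 reads each, with a median of 78 and a sum of 747. In the untreated EXOSC10 library they had 0.825 to 63.5 reads each, and 250.0 in sum. The IgG libraries gave sums of 131 reads with doxycycline and 133 untreated, with no member above 38 reads. All 9 members had more reads with EXOSC10 than with IgG after doxycycline, and 8 of 9 did in untreated cells, before any scaling, as did 91.8% and 74.2% of the 11654 genes with 20 reads over the 4 libraries. Per 1000000 non-ribosomal reads the members held 310.1 and 244 reads in the doxycycline and untreated EXOSC10 libraries, against 107 and 126 in the corresponding IgG libraries. Other genes shared this difference. On the same scale, all genes with 20 reads in the pair had median log2 ratios of EXOSC10 over IgG of 1.29 with doxycycline and 1.05 untreated. The members' medians were 1.56 and 1.26.

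Levels below are CPM after scaling with TMM (trimmed mean of M values), which takes most genes to be equal between libraries. Its factors were 2.50 and 1.24 for the doxycycline and untreated EXOSC10 libraries and 0.452 and 0.715 for the doxycycline and untreated IgG libraries. A ratio is the log2 ratio of 2 scaled values with 0.2 CPM added to each, which understates the ratio of low genes, and the range after it is a 95% Clopper-Pearson interval that covers counting error only. A ratio was counted when it reached 2-fold, its interval did not include 0 and the 2 libraries held at least 20 reads together. A level is comparable between libraries for 1 gene, not between genes, because transcript lengths were not used.

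**Figure D1:**
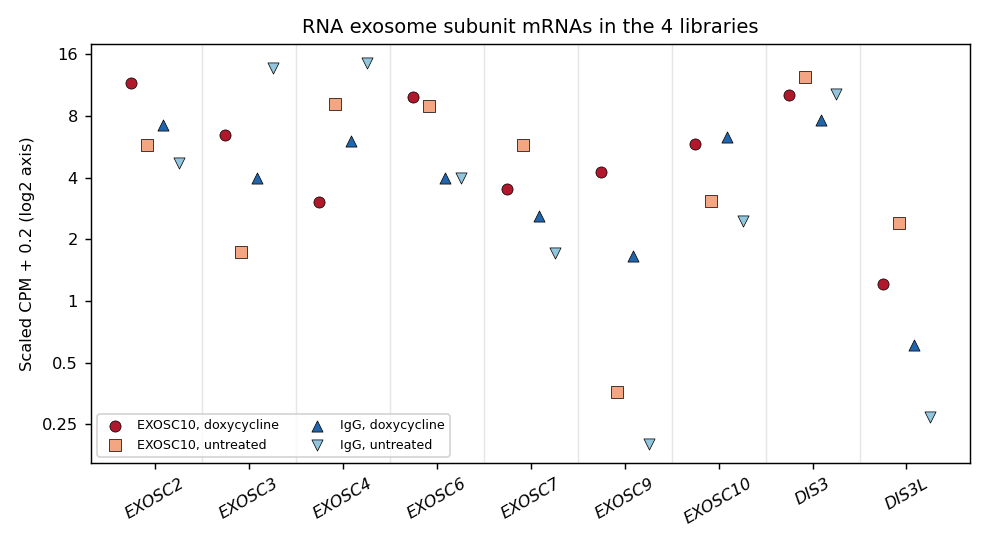
Scaled CPM plus 0.2 (log2 axis) of the 9 subunit mRNAs (x axis) in the 4 libraries; each point is 1 library and there are no error bars because there are no replicates. EXOSC3 and EXOSC9 spread most in the EXOSC10 libraries, EXOSC4 is highest in the untreated IgG library at 14.3 CPM, and DIS3 stays between 7.40 and 12.1 CPM.

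Among the cap subunits, EXOSC3 differed most between the libraries. EXOSC3, encoded on chromosome 9 from 37779714 to 37785092 (GRCh38.p14), contacts RNA at the entrance of the barrel. It had 86.0 and 8.0 reads in the doxycycline and untreated EXOSC10 libraries, against 13.0 and 36.0 in the doxycycline and untreated IgG libraries. In scaled CPM these were 6.24 and 1.53 with EXOSC10, against 3.80 and 13.5 with IgG. The untreated libraries thus hold both the highest level, with IgG, and the lowest, with EXOSC10. Doxycycline over untreated, EXOSC3 was 3.73-fold higher with EXOSC10 (log2 ratio 1.90, 0.99 to 3.29) and 3.44-fold lower with IgG (-1.78, -2.87 to -0.88). EXOSC10 over IgG it was at 0.69 (-0.13 to 1.68) with doxycycline and at -2.99 (-4.46 to -2.02) untreated.

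EXOSC2, the other cap subunit measured here, lies on the same chromosome from 130693760 to 130704894. It had 157 and 29.0 reads in the doxycycline and untreated EXOSC10 libraries and 24.0 and 12.0 in the doxycycline and untreated IgG libraries. The scaled levels were 11.4 and 5.54 CPM with EXOSC10, against 7.01 and 4.51 CPM with IgG, so the doxycycline library was the higher one with either antibody. The EXOSC10 ratio of doxycycline over untreated was 1.01 (0.46 to 1.66), at the edge of the 2-fold limit, and it was 0.99 when the TMM factors came from unrounded reads. The IgG ratio was 0.61 (-0.42 to 1.77). EXOSC10 over IgG, EXOSC2 was at 0.68 (0.07 to 1.38) with doxycycline and at 0.28 (-0.72 to 1.40) untreated.

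Of the barrel subunits, EXOSC4 was lower with doxycycline whichever antibody was used. EXOSC4 is the human Rrp41 and lies on chromosome 8 from 144064056 to 144080648. It had 39.0 and 47.0 reads in the doxycycline and untreated EXOSC10 libraries and 20 and 38 in the doxycycline and untreated IgG libraries, all whole reads from 1 entry. The scaled levels were 2.83 and 8.97 CPM with EXOSC10 and 5.84 and 14.3 CPM with IgG. Doxycycline over untreated, it was 3.03-fold lower with EXOSC10 (-1.60, -2.32 to -1.02) and 2.40-fold lower with IgG (-1.26, -2.15 to -0.47). With total reads in place of TMM the EXOSC10 ratio was -0.64, short of 2-fold. EXOSC4 was also the only member whose IgG level exceeded its EXOSC10 level in scaled CPM in both treatments, with EXOSC10 over IgG ratios of -0.996 (-1.86 to -0.19) with doxycycline and -0.66 (-1.32 to -0.01) untreated, the first just short of the 2-fold limit. This direction rests on the scaling: with total reads the same ratios were 1.36 and 0.12, and with the non-ribosomal total -0.006 and 0.34.

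EXOSC6, the human Mtr3, showed the opposite relation to IgG. It lies on chromosome 16 from 70246778 to 70251940 and had 134 and 46.0 reads in the doxycycline and untreated EXOSC10 libraries, against 13.0 and 10.0 in the doxycycline and untreated IgG libraries. The scaled levels were 9.72 and 8.78 CPM with EXOSC10 and 3.80 and 3.76 CPM with IgG. The treatments were thus close to each other with either antibody, at 0.14 (-0.35 to 0.66) with EXOSC10 and 0.01 (-1.29 to 1.36) with IgG. EXOSC10 over IgG, EXOSC6 was 2.48-fold higher with doxycycline (1.31, 0.53 to 2.30) and 2.27-fold higher untreated (1.18, 0.22 to 2.38). It was the only member counted as higher than IgG in both treatments.

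EXOSC7 (human Rrp42, chromosome 3 from 44976244 to 45012668) was higher with EXOSC10 than with IgG in untreated cells. It had 45.6 and 29.1 reads in the doxycycline and untreated EXOSC10 libraries, against 8.24 and 4.0 in the doxycycline and untreated IgG libraries. EXOSC10 over IgG it was at 1.76 (0.37 to 3.85) untreated and at 0.43 (-0.58 to 1.81) with doxycycline. Doxycycline over untreated, the EXOSC10 ratio was -0.72 (-1.43 to -0.01), short of 2-fold, and the IgG libraries held too few reads for a ratio.

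EXOSC9 (human Rrp45, chromosome 4 from 121801323 to 121817021) was read almost only after doxycycline with EXOSC10. It had 56.0 reads in the doxycycline EXOSC10 library and 0.825 of a read in the untreated one, against 5.00 with IgG after doxycycline and 0 with IgG in untreated cells. A count of 0 allows up to 3 reads there, or 0.806 CPM before scaling. Taken against 3 reads in the untreated EXOSC10 library, EXOSC9 was at least 7.09-fold higher with doxycycline, and it was at 1.36 (0.17 to 3.15) over IgG with doxycycline. It was the only member that reached 10 reads in the doxycycline EXOSC10 library alone, as did 2874 of all genes (22.4%). No entry of the table stayed under 10.0 reads everywhere, and a gene that is listed through 1 library had to stand high in it. The EXOSC9 calls are therefore no support for a rise with doxycycline or for a difference from IgG. EXOSC9 shares 578 bases with CCNA2 on the opposite strand, and CCNA2, which encodes cyclin A, had 93.0 and 15.0 reads in the doxycycline and untreated EXOSC10 libraries and 24.0 and 15.0 in the corresponding IgG libraries. The part of this overlap in the EXOSC9 values was not tested.

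Among the catalytic subunits, the mRNA of the antigen was not counted as higher with its own antibody than with IgG after TMM scaling. EXOSC10 lies on chromosome 1 from 11066618 to 11099869 and had 78.0 and 15.0 reads in the doxycycline and untreated EXOSC10 libraries, against 21.0 and 6.00 in the doxycycline and untreated IgG libraries. The scaled levels were 5.66 and 2.86 CPM with EXOSC10 and 6.13 and 2.26 CPM with IgG, so the 2 doxycycline libraries stood above the 2 untreated ones. EXOSC10 over IgG, the ratio was -0.11 (-0.83 to 0.65) with doxycycline and 0.32 (-1.10 to 1.998) untreated. Doxycycline over untreated, it was 0.93 (0.17 to 1.89) with EXOSC10 and 1.37 (0.09 to 3.04) with IgG, of which only the IgG ratio reached 2-fold. With total reads in place of TMM, EXOSC10 over IgG was 2.27 with doxycycline and 1.05 untreated, and doxycycline over untreated was 1.94 with EXOSC10 and 0.71 with IgG. The EXOSC10 ratio of doxycycline over untreated also passed 2-fold with upper-quartile factors (1.02) and the non-ribosomal total (1.10). With the largest entry it was 2.88, which follows from the choice of entry and is no further support. That entry held 78.0 reads with doxycycline and 3.13 untreated, and the 11.9 untreated reads of the other entry were left out.

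DIS3, the main catalytic subunit of the nuclear exosome, had the narrowest range of scaled levels relative to its height, as long as its table entries were summed. Its gene lies on chromosome 13 from 72752169 to 72781900. It had 137 and 63.5 reads in the doxycycline and untreated EXOSC10 libraries and 25.3 and 26.7 in the doxycycline and untreated IgG libraries. Scaled, these were 9.96 and 12.1 CPM with EXOSC10 and 7.40 and 10.1 CPM with IgG. None of its 4 ratios was counted: doxycycline over untreated gave -0.28 (-0.72 to 0.18) with EXOSC10 and -0.43 (-1.32 to 0.36) with IgG, and EXOSC10 over IgG gave 0.42 (-0.18 to 1.12) with doxycycline and 0.26 (-0.43 to 0.95) untreated.

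DIS3L, the cytoplasmic counterpart of DIS3 (chromosome 15 from 66293309 to 66333898), was at the limit of detection. It had 13.9 and 11.6 reads in the doxycycline and untreated EXOSC10 libraries, against 1.40 and 0.192 in the doxycycline and untreated IgG libraries. With EXOSC10, doxycycline over untreated stood at -0.99 (-2.39 to 0.07), and the other ratios rested on fewer than 20 reads. The -0.99 sums 2 table entries. Entry 1 held 13.9 and 1.45 reads in the doxycycline and untreated EXOSC10 libraries, and entry 2 held 0 and 10.1. With the largest entry alone the ratio was 1.34, so its sign rests on the summing of entries.

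**Figure D2:**
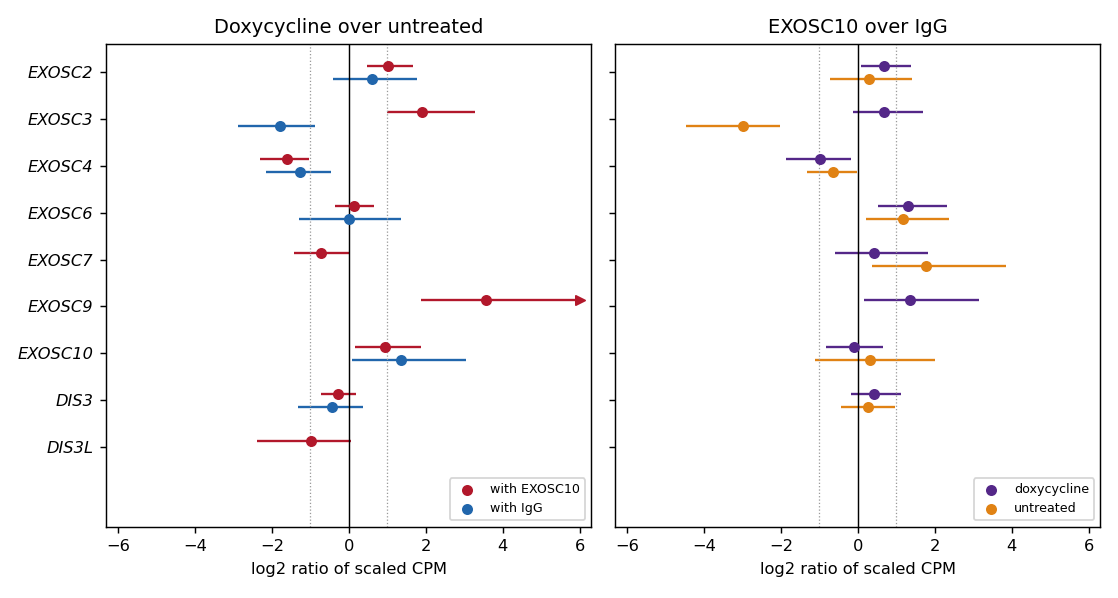
Log2 ratios of scaled CPM for the 9 subunit mRNAs with 95% counting intervals, doxycycline over untreated (left) and EXOSC10 over IgG (right); pairs of libraries with fewer than 20 reads are not drawn, dotted lines mark 2-fold, and an arrowhead marks an interval that runs past the axis. EXOSC3 lies at 1.90 with EXOSC10 and -1.78 with IgG, EXOSC4 lies below 0 in every ratio drawn under this scaling, and EXOSC6 lies above 1 in both ratios over IgG.

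Taken by comparison, 3 of the 9 members (EXOSC2, EXOSC3 and EXOSC9) were counted as higher with doxycycline in the EXOSC10 libraries and 1 (EXOSC4) as lower. EXOSC9 was listed through the doxycycline EXOSC10 library alone, so its call is no support. Without it, 2 of 8 members were higher and 1 lower. Of all 11243 genes with 20 reads there, 15.6% were higher and 7.57% lower (23.2% together). Among the 6471 of these whose reads over the 4 libraries lay within the range of the members, 27.1 to 253, the shares were 22.5% and 9.72%. The median EXOSC10 ratio of the members was 0.14, against 0.04 over all genes and 0.20 over genes in that range of reads. With total reads the members were 5 higher and 0 lower, and with median-of-ratios factors 2 and 2. They were 4 and 1 with upper-quartile factors or the non-ribosomal total. All genes had medians of 1.04 with total reads, -0.08 with median-of-ratios factors, 0.12 with upper-quartile factors and 0.20 with the non-ribosomal total. Shares of all genes past the rule are given for TMM only. As the plot against reads shows, the members spread over the same band as other genes read as thinly.

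**Figure D3:**
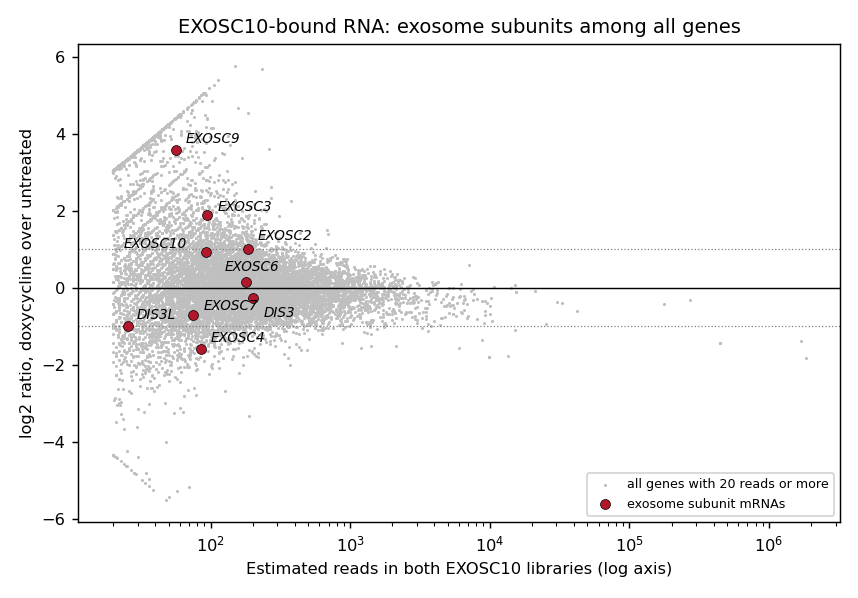
Log2 ratio of doxycycline over untreated in the EXOSC10 libraries against the estimated reads of both libraries (log axis) for all genes with 20 reads or more (grey) and the 9 subunit mRNAs (red); each point is 1 gene, dotted lines mark 2-fold. The members run from -1.60 (EXOSC4) to 3.58 (EXOSC9) on this scale and lie within the grey band.

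With IgG, doxycycline over untreated, 6 members had 20 reads. EXOSC10 was counted as higher and EXOSC3 and EXOSC4 as lower, where 7.31% of 7316 genes were higher and 6.74% lower (14.1% together), or 11.9% and 10.6% of 3032 genes in the members' range of reads. With total reads none of the members was higher and 3 were lower, counts for which no share of all genes is given. The median was -0.21, against -0.01 over all genes, and it was 0.61 over all 9 members with no minimum of reads and -0.82 with total reads, where all genes stood at -0.65. In the comparison of EXOSC10 with IgG after doxycycline, EXOSC6 and EXOSC9 of 8 members were higher and none lower, where 22.9% of 10945 genes were higher and 19.6% lower (42.5% together), or 31.5% and 10.3% of 6308 in the range of reads. The EXOSC9 call is no support here either, because EXOSC9 was listed through the doxycycline EXOSC10 library alone. The median of the members was 0.56, against 0.29 over all genes and 0.55 over genes in the members' range of reads. In untreated cells EXOSC6 and EXOSC7 of 7 members were higher and EXOSC3 lower, beside 15.1% and 22.0% of 8526 genes (37.1% together) and 23.3% and 12.7% of 4218 in the range of reads, with medians of 0.28 for the members, 0.06 over all genes and 0.35 in the range of reads. Counts over IgG move with the scaling: with total reads 8 of 8 members were higher after doxycycline, where the median of all genes was itself 2.65. The comparisons share libraries, so a high or low library enters more than 1 of them.

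The change of enrichment sets the EXOSC10 over IgG ratio with doxycycline against that in untreated cells. EXOSC3 had the only counted change, 3.68 (2.29 to 5.07), with enrichments of 0.69 and -2.99. The other 6 members with 20 reads in both pairs lay between -1.33 (-3.18 to 0.52) for EXOSC7 and 0.40 (-0.75 to 1.55) for EXOSC2. Of all 8376 genes with as many reads, 9.48% had a counted change upward and 11.4% downward. The median change was 0.13 for the members and -0.07 over all genes.

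The library with the highest scaled level was the doxycycline EXOSC10 library for 3 members, the untreated EXOSC10 library for 3, the doxycycline IgG library for 1 and the untreated IgG library for 2. Of 11654 genes with 20 reads over the 4 libraries, 35.4%, 23.6%, 19.3% and 21.7% were highest in these libraries, in the same order. The lowest scaled level lay in the untreated IgG library for 6 of the 9 members, and for 33.0% of these genes with ties counted. That share was not matched for the members' reads. EXOSC7, EXOSC9 and DIS3L, among the 6, reached 10 reads in EXOSC10 libraries alone, so a low IgG level went with their listing. In CPM as deposited, 7 members were highest in the doxycycline EXOSC10 library, as were 82.5% of all genes, and 2 in the untreated EXOSC10 library (6.94%), while the doxycycline and untreated IgG libraries were highest for none (0.875% and 9.64%).

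The only replication of the antibody contrast is across the 2 treatments, and that of doxycycline across the 2 antibodies. Both were tested in an additive limma fit over all 4 libraries with 1 residual degree of freedom, for the 9594 genes that reached 10 reads in 2 libraries or more. EXOSC9 was below this minimum. For EXOSC10 over IgG, 0 of the 8 other members passed an adjusted p of 0.05 (Benjamini-Hochberg over all genes), where 1.36% of genes were called higher and 15.8% lower (17.2% together). The split of all genes was 130 higher to 1519 lower, against 514 to 6 with total reads, 3501 to 588 with the non-ribosomal total and 474 to 1491 with upper-quartile factors, and no gene passed without the mean-variance trend. EXOSC6 came closest, with a fitted log2 ratio of 1.25 ± 0.52 (SE) and an adjusted p of 0.141 in limma, and it was higher in both treatments. It was the 1 of 8 members with an unadjusted limma p under 0.05, which 2981 of the 9594 genes also had. EXOSC4 was at -0.83 ± 0.49 with an adjusted limma p of 0.273, and EXOSC7 at 1.09 ± 0.75 with 0.346. EXOSC7 reached 10 reads in the EXOSC10 libraries alone and entered the fit by standing high there. Its ratio is therefore no support for a difference from IgG. For doxycycline over untreated, 0 of the 8 members and 0 of the 9594 genes passed in limma, while 1 member and 441 genes had an unadjusted p under 0.05. That member was EXOSC4, at -1.43 ± 0.49 and lower with both antibodies, with an adjusted limma p of 0.85. EXOSC10 was at 1.15 ± 0.63 with the same adjusted p, and EXOSC3, which moved in opposite directions, was at 0.06 ± 0.85. No count model was run.

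The table split 4 of the 9 subunits into several entries with the same symbol, 16 entries in all for the 9 members, with no identifier that says which transcript an entry is. For DIS3, the entry that held the reads differed between the EXOSC10 libraries. Entry 1 held 131.9 of the 137 reads in the doxycycline EXOSC10 library and 0.518 of the 63.5 in the untreated one. Entry 2 held 2.19 and 62.5 reads in the same libraries. In the IgG libraries DIS3 reads lay on entries 1 and 2 with doxycycline, 39.6% and 54.3%, and mostly on entry 3 untreated, 67.2%.

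The EXOSC10 gene had 2 entries. Entry 1 held nearly all reads in the doxycycline EXOSC10 library and in both IgG libraries (99.9% with doxycycline), but 20.9% of the 15.0 reads in the untreated EXOSC10 library, where entry 2 held 79.1%. EXOSC2 had 4 entries, and the first held 53.4% in the doxycycline EXOSC10 library and 93.5% in the untreated one, against 26.7% and 66.7% with IgG in doxycycline-treated and untreated cells. The entries of EXOSC2 and of EXOSC10 held fractions that added up to whole reads in every library, and 5 members (EXOSC2, EXOSC3, EXOSC4, EXOSC6 and EXOSC10) had whole reads throughout. The sums of DIS3, DIS3L, EXOSC7 and EXOSC9 were not whole in 1 library or more. DIS3 shares 4028 bases with BORA on the opposite strand, and BORA had 11.8 and 22.7 reads in the doxycycline and untreated EXOSC10 libraries and 2.50 and 4.93 in the corresponding IgG libraries. How reads were divided between entries is not given in the sources used here, and its part in these shifts was not tested.

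**Figure D4:**
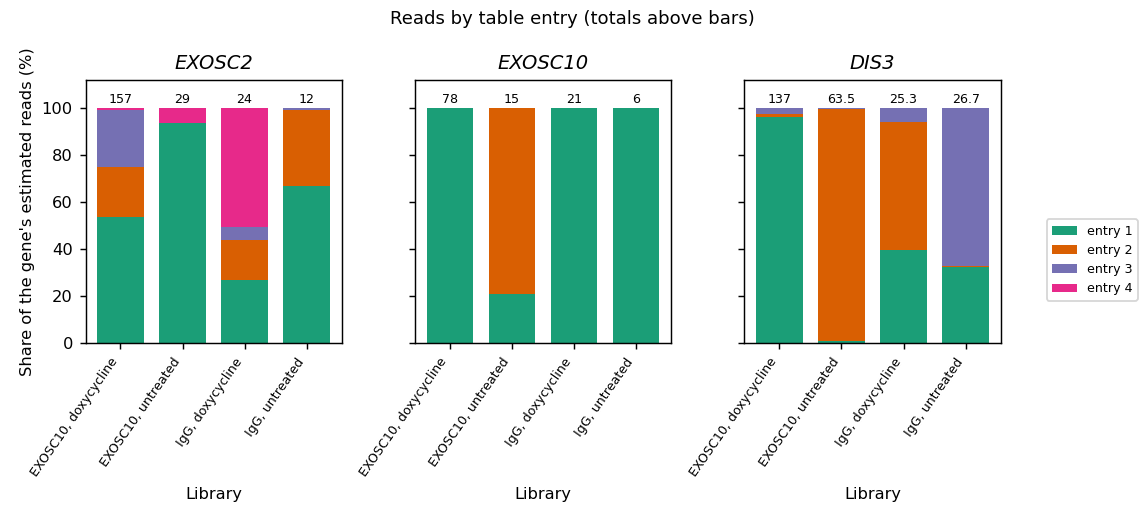
Share of each gene's estimated reads (%) held by its table entries in the 4 libraries, for EXOSC2, EXOSC10 and DIS3; numbers above the bars are the gene's estimated reads, and entries are numbered by their reads over all libraries. DIS3 reads lie on entry 1 in the doxycycline EXOSC10 library (96.0%) and on entry 2 in the untreated one (98.6%).

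Profiles over the 4 libraries were compared by the Euclidean distance of centred log2 scaled values. Within the set, EXOSC2 and EXOSC10 were closest (0.66) and EXOSC4 and EXOSC9 farthest apart (5.14), so a cap and a catalytic subunit were nearer to each other than any pair of barrel subunits. Among 7513 other genes with 100 reads, those nearest to the summed members were S100A16 and UCHL1 (0.03 each), SEC11A (0.05), H3C6 and SLC3A2 (0.07 each), and 982 genes lay within 0.5. Nearest to EXOSC10 were ALKBH2 (0.07), ALDH7A1 (0.15), DENND11 (0.16), RIPK1 (0.17) and ERGIC2 (0.18), with 82 of 7518 genes within 0.5. With 4 libraries such a likeness is a description only.

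Of the remaining exosome subunits, EXOSC1 of the cap and EXOSC5 of the barrel held fewer than 20 reads in the EXOSC10 libraries together. EXOSC5 had 1.0 and 17.0 reads in the doxycycline and untreated EXOSC10 libraries and 9.0 and 13.0 in the doxycycline and untreated IgG libraries. EXOSC1 had 0.169 and 11.2 reads with EXOSC10. DIS3L2, a uridylation-linked cytoplasmic relative of DIS3 that works outside the exosome, had 41.7 and 7.94 reads with EXOSC10 and was at 0.91 (-0.11 to 2.30). EXOSC8 had no entry analysed here.

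Genes that work with the exosome or beside it gave the following values for doxycycline over untreated with EXOSC10, where 15.6% of all genes were higher and 7.57% lower. Of 14 nuclear cofactors 5 were higher and 1 lower, with a median of 0.25: NRDE2, a negative regulator of nuclear decay, was at -2.08, C1D, a partner of EXOSC10, was at least 3.67-fold higher on 29.0 reads, and ZCCHC7 of the TRAMP complex and ZCCHC8 of the nuclear exosome targeting complex were at 2.52 and 1.38. Of 6 genes of the cytoplasmic SKI complex and its adaptors 1 was higher and none lower, with a median of -0.11. That was AVEN, with 24.0 reads and 0, at least 3.04-fold higher, while TTC37 (now SKIC3) was at 0.84, SKIV2L (now SKIC2) at -0.41 and HBS1L at -0.37. C1D and AVEN reached 10 reads in the doxycycline EXOSC10 library alone. A gene listed through that library had to stand high in it, so neither call is support for a rise with doxycycline. Of 9 measured genes of decapping and 5′ decay none was counted, with a median of -0.27, and XRN2, the nuclear 5′ exonuclease, was at -0.64, DXO at -0.86, XRN1 at 0.91 and DCP1A at -0.08. Of 8 deadenylase genes 2 were lower and none higher, with a median of -0.15: CNOT6L was at -1.26 and CNOT1, the scaffold of the CCR4-NOT complex, at -1.14, beside CNOT6 at -0.61 and PAN3 at 0.54.

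The same genes were set against IgG. In the additive limma fit of EXOSC10 over IgG, 4 of 13 nuclear cofactors (NRDE2, PABPN1, TENT4B and ZFC3H1), 2 of 5 SKI genes (HBS1L and WDR61, now SKIC8), 3 of 9 decapping and 5′ decay genes (PATL1, XRN1 and XRN2) and 3 of 8 deadenylase genes (CNOT1, CNOT6L and PAN3) were called lower at an adjusted p of 0.05, and none higher, where 15.8% of all genes were lower and 1.36% higher. The medians of the fitted log2 ratios were -0.82, -1.07, -0.96 and -1.15 in this order, beside 0.41 for the 8 members, -1.27 for the other exosome subunits tested (EXOSC5 at -1.97 and DIS3L2 at -0.57) and 0.21 over all genes tested. The members' median includes EXOSC7 (1.09) and DIS3L (2.07), which entered the fit through the EXOSC10 libraries alone. It is therefore no support for a difference of the members from IgG. The lists overlapped: RBM7, a nuclear cofactor, stood at 3.77 ± 1.21 with an adjusted limma p of 0.069, and the members EXOSC3 and EXOSC4 stood at -1.15 and -0.83. RBM7 had 66.9 and 12.0 reads in the doxycycline and untreated EXOSC10 libraries, against 0.305 and 0.087 with IgG. It entered the fit through the EXOSC10 libraries alone, and the size of its ratio rests on the 0.2 CPM added. The lists were not matched for reads, and the difference between them was not tested. In the doxycycline libraries CNOT1 and XRN2 held 3061 and 852 reads, but XRN1 and NRDE2 held 106 and 140. By the fold rule with doxycycline, 10.3% of genes in the members' range of reads were lower than IgG, against 19.6% of all genes. Untreated, these shares were 12.7% and 22.0%. With total reads 6 of all genes were called lower in limma.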

How the data were processed

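RNA recovered with an EXOSC10 antibody or IgG was sequenced; per the labels' protocols, libraries were made with the SMARTER mRNA-Seq kit. The authors deposited CPM values: each column sums to 1000000 apart from a constant of 0.0001 CPM on every entry. STAR, Partek and genome build hg38 are named, with no versions, per the submitters' processing notes. For the counting rule and strand setting, nothing is stated there.

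The constant was taken off and the entries of a symbol were summed. Reads were estimated as CPM divided by the worth of 1 read (0.181 and 0.236 CPM in the doxycycline and untreated EXOSC10 libraries, 0.132 and 0.269 CPM in the doxycycline and untreated IgG libraries). Between 67.4% and 73.9% of genes in a library were within 0.05 of a whole read, so no count model was used, and limma 3.58.1 on log2(CPM + 0.2) replaced the count test, with a mean-variance trend. TMM used reads rounded to whole numbers, trimming 30% of ratios and 5% of levels at each end, over 4 libraries. A change of enrichment has an interval based on summed reciprocal reads. All intervals and the floors of 3 reads cover counting error only. Nothing in the labels says that libraries came from separate cultures. Steps were tested on simulated data in which few genes differed between antibodies and none with doxycycline. Scaling factors there stayed close to each other. That test therefore does not cover libraries with TMM factors as far apart as 2.50 and 0.452.

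The members and the lists of other genes were chosen with earlier results of these data known. All 9 members are named, up to 4 genes of each other list (those whose interval bound in the EXOSC10 libraries lay farthest from 0), and the 5 genes nearest in profile. List genes called in the limma fit were named after their values were seen, because the counts are small. CCNA2 and BORA, and RBM7, were named after their values were seen, the first 2 for their overlap, and EXOSC1 and EXOSC5 although under 20 reads. Coordinates come from RefSeq's GRCh38.p14 table, the same build as hg38.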

Additional observations from a re-analysis of the deposited data

Results flagged for a closer look

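EXOSC3 stood out because doxycycline over untreated went in opposite directions with the 2 antibodies, past 2-fold in each: 86.0 and 8.0 reads with EXOSC10, against 13.0 and 36.0 with IgG. The difference between both log2 ratios was 3.68, with a counting interval of 2.29 to 5.07. With 1 library in each group the difference was not tested against replicates, and it rests on the 8.0 reads of the untreated EXOSC10 library and the 13.0 of the doxycycline IgG library.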

How the results depend on the processing

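The members' medians and counts rest on scaling and depth. With total reads in place of TMM, the median ratio was 1.15 for EXOSC10 doxycycline over untreated (1.04 over all genes), 2.94 for EXOSC10 over IgG with doxycycline (2.65 over all genes) and 1.74 for the change of enrichment (1.56 over all genes). The members past the fold rule were then 5 for EXOSC10 over IgG untreated, where the median of all genes was 0.83, and 8 with doxycycline. For EXOSC10 over IgG, limma then called 1 of 8 members, DIS3L, higher, beside 514 of all 9594 genes higher and 6 lower. DIS3L reached 10 reads in the 2 EXOSC10 libraries alone and entered the fit only by standing high there. Its call is therefore no support for a difference from IgG. With the non-ribosomal total, the median with doxycycline was 1.56 (1.29 over all genes). The members past the rule were 5 untreated, where the median of all genes was 1.05, and 6 with doxycycline. With this scaling limma called 3 of 8 members higher (DIS3, EXOSC2 and EXOSC6), beside 3501 of all 9594 genes higher and 588 lower. A minimum of 100 reads with no interval rule left 1 member for EXOSC10 doxycycline over untreated (EXOSC2) and 1 for EXOSC10 over IgG with doxycycline (EXOSC6). Taking the entry with most reads instead of the sum gave a median of 1.06 for EXOSC10 doxycycline over untreated and 4 members past the rule for EXOSC10 over IgG with doxycycline. Leaving out EXOSC9 left 1 there. In the EXOSC10 libraries, doxycycline over untreated, the members past the rule were 5 higher and 0 lower with total reads and 2 and 2 with median-of-ratios factors, against 3 and 1. Shares of all genes past the rule are given for TMM only, so the counts of members under the alternatives have no such share beside them. Of the single members' values under the alternatives, 6 fell short of the fold rule that they had passed, 23 came to pass it in the same direction and 3 came to pass it in the opposite one. These 3 were EXOSC10 over IgG with doxycycline under total reads, for EXOSC4 (1.36) and EXOSC10 (2.27), and DIS3 in the EXOSC10 libraries with the largest entry (5.03). The largest DIS3 entry held 131.9 and 0.518 reads in the doxycycline and untreated EXOSC10 libraries. The 62.5 untreated reads of entry 2 were then left out, while the summed gene was at -0.28. In the other reversals, total reads left out the TMM factors of 2.50 and 0.452 of the doxycycline EXOSC10 and IgG libraries. Why DIS3 reads lay on different entries was not tested. EXOSC2 fell short with unrounded TMM, median-of-ratios factors, a pseudocount of 1 CPM and the largest entry, and with total reads so did EXOSC4 with EXOSC10 (-0.64) and EXOSC10 with IgG (0.71). The IgG median of the members, -0.21, was 0.61 with no minimum of reads. Without the mean-variance trend limma called 0 genes of all for EXOSC10 over IgG, where 130 were higher and 1519 lower with it. The calls were 514 higher and 6 lower with total reads, 3501 and 588 with the non-ribosomal total, and 6 and 431 with the largest entry. For doxycycline over untreated, limma called 11 genes higher with total reads, and 1 higher and 3 lower with no minimum of reads. Unrounded TMM, the run without EXOSC9 and, for the counts of members past the rule, every other scaling, the pseudocount of 1 CPM and the largest entry were chosen after seeing the data. No paired analysis was possible because the labels give no replicate numbers and each group held 1 library; the additive limma fit sets treatments against each other within antibody, and antibodies within treatment. The lowest member, DIS3L, had 27.1 reads in all.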
